A study of Schizosaccharomyces pombe with 14 samples.

Results

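The genes described here are mfs2 (SPAC11D3.05), its paralog SPBC530.02 and 7 related transporter genes of the fission yeast Schizosaccharomyces pombe. They were taken by their identifiers, as 9 of the 7049 genes in the count table. RefSeq names the products of SPBC36.01c, SPBC36.02c, SPBC36.03c (symbol mfs3), SPBC947.06c, SPBC530.15c and SPCC569.05c as spermidine family transporters and that of SPBC409.08 as a spermine family transporter. mfs2 is annotated as an MFS family membrane transporter and SPBC530.02 as a transporter. The study named mfs2 and SPBC530.02 as targets of the ribonuclease Pac1 with these libraries in hand, so their rise on loss of Pac1 is not independent evidence here. It had other evidence too. For both genes this was chromatin immunoprecipitation of Pac1 and of RNA polymerase II, and for mfs2 also cleavage of its stem-loop in vitro and a mutant of that stem-loop. The question put to the other 7 genes was whether they respond to loss of Pac1, to heat and to depletion of nuclear exonucleases as those targets do.

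Transporters of the major facilitator superfamily (MFS) are membrane proteins with many membrane-spanning helices that move small molecules such as sugars, drugs and polyamines. Spermidine and spermine are polyamines, small positively charged molecules that bind RNA and DNA, and cells both make them and move them across membranes. Pac1 is the fission yeast member of the RNase III family, the family of Drosha, and it cuts RNA folded into double-stranded stem-loops, among them precursors of small nuclear and nucleolar RNAs. Dhp1 is the nuclear 5′-3′ exonuclease that degrades the RNA left after a transcript is cut, and Dis3 is a 3′-5′ catalytic subunit of the exosome.

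RNA depleted of ribosomal RNA was measured as strand-specific read counts per gene in 14 libraries from 3 experiments, and groups were compared only within an experiment because kits and depths differed. In the anchor-away experiment (2 Pac1-AA and 2 CTL libraries), the Pac1-AA strain carried Pac1-FRB-GFP::natMX6, which rapamycin pulls out of the nucleus, and CTL lacked it. Both of these strains were h- with torSE::KanMX6, lacked fkh1 (fkh1::URA+) and expressed the anchor (nmt1-rpl13-2FKBP12) from leu1-32, with ura4-D18 and ade6-M210 markers. Rapamycin was added to both (2.5 µg/ml, 2 h) at 30°C. For the pac1-ts experiment, 2 clones with the temperature-sensitive allele pac1-G1024A and their 1 WT parent (h+, ade6M210, leu1-32, ura4-D18, his3-D1) were each sequenced at 37°C (2 h) and 30°C, in minimal medium. In the thiamine experiment, 1 library each came from strains in which the thiamine-repressed nmt81 promoter drives dis3, dhp1 or both (Pnmt81-dis3, Pnmt81-dhp1, Pnmt81-dhp1 Pnmt81-dis3) and from a WT with ade6-M216, all with leu1-32, ura4-D18 and his3-D1. These cells grew at 30°C for 12 to 15 h with 60 µM thiamine, and mating types and ade6 alleles differed or were not recorded among them. The study calls the anchor-away replicates biological, but apart from the 2 clones the labels name no separate cultures, so p-values measure the spread between these libraries, which may be partly technical.

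Libraries held 19877576 to 53258725 counts in the anchor-away experiment, 15997568 to 17743083 in the pac1-ts experiment and 6836270 to 9470347 in the thiamine experiment. Levels are given as CPM, a gene's counts as a share of the library total times 1e6, scaled by TMM within an experiment, and 3 counts, taken as the floor, were 0.0563 to 0.439 CPM of the library totals before that scaling. The RNA of pac1 itself stood at 156.8 and 154.4 CPM in Pac1-AA and 97.0 and 94.2 CPM in CTL, which says nothing of the tagged protein. It was at 124.4 and 121.5 CPM in pac1-ts against 248.4 CPM in WT at 30°C, and at 85.8 and 77.2 CPM in pac1-ts against 69.0 CPM in WT at 37°C. The strain difference in pac1 RNA thus changed between temperatures (1.26, adjusted p = 0.00249, edgeR). In the thiamine experiment the RNA of the targeted genes went against the labels in part, since neither gene was lower in the double library and dis3 was lowest in the library labelled for dhp1. dhp1 stood at 398.3 CPM in the library labelled Pnmt81-dis3, 114.1 CPM in that labelled Pnmt81-dhp1 and 371.0 CPM in that labelled with both, against 186.7 CPM in WT. dis3 stood at 165.0, 114.4 and 247.5 CPM in the same order, against 209.6 CPM in WT. Over log2 CPM of all genes, the library labelled Pnmt81-dis3 was closest to the double one (r = 0.966) and that labelled Pnmt81-dhp1 closest to WT (r = 0.923). They are therefore called here by their labels only.

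In sequence the 9 genes fell into a pair, a group of 5 and 2 genes apart. The proteins translated from the RefSeq coding sequences of mfs2 and SPBC530.02 (546 and 541 residues) were identical at 67.0% of 539 aligned positions. Against the 7 relatives, both shared 31.5% to 37.0%. SPBC36.02c and SPCC569.05c were the closest pair of all, with 83.8% of 575 aligned positions identical, and SPBC36.01c and SPBC36.03c shared 57.1% to 62.5% with them and with each other. SPBC530.15c shared 47.8% to 52.8% with these genes, while SPBC947.06c and SPBC409.08 were at 31.5% to 37.0% to every other member.

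In the files' ASM294v2 coordinates, mfs2 lies on chromosome I (113950 to 115962, forward strand), SPCC569.05c on III (2423807 to 2427995, forward) and the others on II. SPBC530.15c (828602 to 832553), SPBC36.01c (832780 to 836971), SPBC36.02c (836908 to 841625) and SPBC36.03c (843017 to 845684) stand in a row on the reverse strand of II. SPBC947.06c (661588 to 665070), SPBC530.02 (787678 to 789529) and SPBC409.08 (1151272 to 1154300) are on its forward strand, and SPBC409.08 alone among the 9 has 2 exons in the files. Reads were 50 bases from each end. In RefSeq ASM294v3 transcripts, the longest stretch shared by any 2 members was 39 bases, between SPBC36.01c and SPBC36.02c. In the files' coordinates these 2 genes also overlap by 64 bases on the same strand, where fragments falling on both were dropped. The longest stretch shared by the close pair SPBC36.02c and SPCC569.05c was 26 bases, at coding positions 868 and 865. It is shown because these 2 genes moved in opposite directions on loss of Pac1, and it lies on II at 838393 to 838418 (reverse) and III at 2425200 to 2425225 (forward) in RefSeq ASM294v3.
SPBC36.02c and SPCC569.05c: tggagatggacagagtacattacttc

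Because Pac1 cuts stem-loops, the coding sequences were folded with RNAfold in windows of 60 bases. The lowest predicted energy among the 9 genes was -26.0 kcal/mol, in mfs2 at coding bases 118 to 177, a single hairpin of 21 base pairs. This window is shown with the stretches of SPBC530.02, SPBC36.02c and SPCC569.05c that align with it, from RefSeq ASM294v3, 5′ to 3′, with capitals for bases paired in the predicted structure. The 4 stretches are mfs2 on I at 114197 to 114256 (forward), SPBC530.02 on II at 787792 to 787842 (forward), SPBC36.02c on II at 839050 to 839123 (reverse) and SPCC569.05c on III at 2424498 to 2424564 (forward).
mfs2: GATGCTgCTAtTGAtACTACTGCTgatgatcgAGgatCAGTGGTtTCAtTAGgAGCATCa
SPBC530.02: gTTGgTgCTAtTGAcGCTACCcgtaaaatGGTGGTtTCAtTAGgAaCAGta
SPBC36.02c: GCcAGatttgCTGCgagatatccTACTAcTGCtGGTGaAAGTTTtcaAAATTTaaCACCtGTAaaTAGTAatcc
SPCC569.05c: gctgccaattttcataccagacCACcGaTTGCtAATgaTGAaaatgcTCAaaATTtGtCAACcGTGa

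The stretch of SPBC530.02 was predicted to form a single hairpin of 16 pairs at -14.2 kcal/mol, and 37 of its 51 aligned bases were identical to mfs2. Among the relatives, identical bases numbered 38 of 59 (SPBC36.01c), 37 of 58 (SPBC36.02c), 39 of 57 (SPBC36.03c), 27 of 41 (SPBC947.06c), 29 of 47 (SPBC409.08), 18 of 24 (SPBC530.15c) and 35 of 55 (SPCC569.05c). In the 7 relatives the aligned stretches, which run over 24 to 74 bases and so are not compared for size, had predicted energies between -13.1 kcal/mol (SPBC36.01c) and -0.3 kcal/mol (SPBC530.15c). The hairpin of mfs2 lies inside the 191-base stretch that the study's oligonucleotides amplify (I at 114136 to 114326). Over 60-base windows at every base, 2.01% of 5082 coding sequences of the genome reached an energy as low as that of mfs2. The lowest window of SPBC530.02 was at -20.9 kcal/mol, which 26.4% reached, and lies elsewhere, at coding bases 1403 to 1462. SPBC947.06c had -23.8 kcal/mol, which 6.65% reached, and the other 6 relatives had -21.8 to -18.7 kcal/mol, with shares of 18.1% to 53.8%. The paralog of mfs2 thus lay within the range of the relatives on this measure. In windows of 200 bases every 10 bases, SPBC947.06c was lowest (-69.7 kcal/mol), followed by SPBC36.02c (-61.9), mfs2 (-61.2) and SPBC36.03c (-60.8). In each gene's lowest window of this kind, the longest unbranched stem-loop was that of SPBC530.02, with 54 base pairs at coding bases 58 to 218, ahead of SPBC36.03c with 47 and mfs2 with 33. This order depends on the windows, since with windows every 100 bases mfs2 had 33 pairs, SPBC530.02 had 30 and SPBC36.03c had 29, counts that 13.2%, 18.1% and 20.2% of coding sequences reached. A predicted fold is a description of the letters and shows no cut. For mfs2 the study reports separately that recombinant Pac1 can cleave its stem-loop in vitro.

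**Figure D1:**
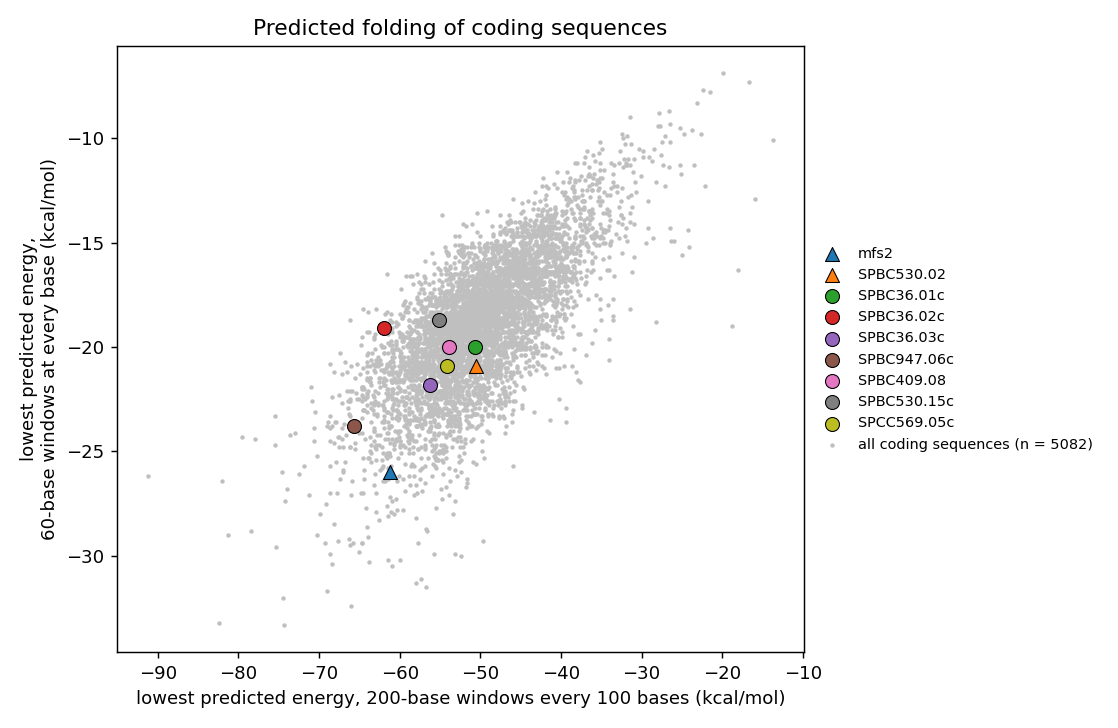
Lowest predicted folding energy of each coding sequence in kcal/mol, in 200-base windows every 100 bases (x axis) and 60-base windows at every base (y axis), for mfs2 and SPBC530.02 (triangles), the 7 relatives (circles) and 5082 coding sequences (grey dots). All 9 genes lie within the cloud of other genes, with SPBC947.06c lowest of them on the x axis (-65.7 kcal/mol) and mfs2 on the y axis (-26.0 kcal/mol).

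Per length, the relatives were spread over the range of coding genes while the pair stood below the median of coding genes in every CTL and WT library. In FPKM (CPM divided by transcript length in kilobases), CTL libraries had 154 and 170 for SPBC36.03c, 90.0 and 94.2 for SPBC409.08 and 50.8 and 51.8 for SPBC530.15c. The medians of coding genes were 38.7 and 38.4, so these 3 were above it. SPCC569.05c (15.6 and 16.8), SPBC947.06c (15.4 and 14.3) and mfs2 (13.8 and 12.7) followed, close together but in ranges that did not overlap. SPBC530.02 (8.80 and 8.71), SPBC36.01c (7.28 and 7.22) and SPBC36.02c (5.30 and 5.34) were lowest. These values use the gene lengths of the files, which are longer than RefSeq's for some members. SPBC36.02c spans 836908 to 841625 in the files but 836908 to 839285 in RefSeq ASM294v3. The order among the low genes may therefore depend on the annotation, and it was not computed with RefSeq lengths. In Pac1-AA libraries, SPBC530.02 (304 and 301) and mfs2 (204 and 204) were at the top of the 9, and the 7 relatives kept the order they had in CTL. On the same scale, mfs2 lay at percentiles 90.6 and 90.8 of coding genes in Pac1-AA against 13.97 and 12.8 in CTL, and SPBC530.02 at 93.5 and 93.5 against 9.1 and 9.2. In the thiamine experiment, SPBC530.02 was at percentiles 71.9, 31.2 and 63.7 in the libraries labelled Pnmt81-dis3, Pnmt81-dhp1 and both, against 6.5 in WT. mfs2 was at 36.5, 22.2 and 57.4 in that order, against 27.0 in WT. In the WT library grown with thiamine, SPBC409.08 (262 FPKM), SPBC36.03c (219) and SPCC569.05c (119) were highest. A level in a culture cannot tell RNA per cell from the share of cells that make it.

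**Figure D2:**
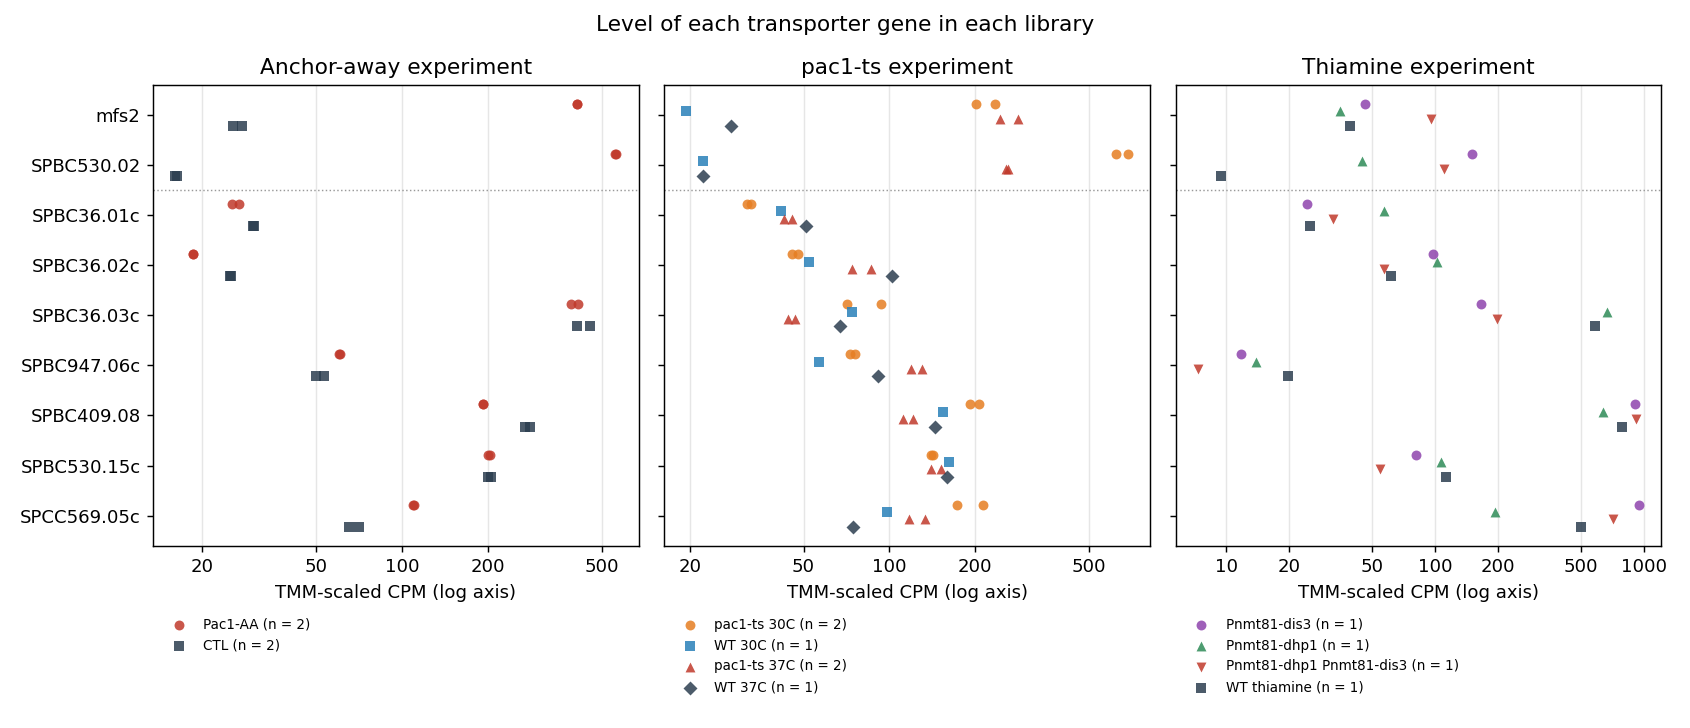
TMM-scaled CPM (log axis) of each gene in every library of the anchor-away, pac1-ts and thiamine experiments, with mfs2 and SPBC530.02 above the dotted line and 1 point for each library. In the first 2 panels both lie far to the right in Pac1-AA and pac1-ts (200.9 CPM or more) and to the left in CTL and WT (27.8 CPM or less), while no relative shows so wide a gap between Pac1 mutants and controls.

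Nuclear depletion of Pac1 raised mfs2 and SPBC530.02 many-fold and moved the relatives by less than 2-fold, some up and some down. SPBC530.02 had 563.0 and 556.6 CPM in Pac1-AA, against 16.3 and 16.1 CPM in CTL. mfs2 had 410.2 and 410.6 CPM in Pac1-AA, against 27.7 and 25.6 CPM in CTL. The groups lay far apart for both genes. The log2 fold change was 5.11 for SPBC530.02 (SE 0.0372, adjusted p = 1.41e-12, edgeR's quasi-likelihood test, Benjamini-Hochberg adjusted over 6328 genes), the largest rise of all genes tested, and 3.95 for mfs2 (SE 0.0391, adjusted p = 1.12e-11). In fold these are 34.5 and 15.5.

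SPCC569.05c, of the group of 5, was the relative that rose most. It had 110.3 and 109.7 CPM in Pac1-AA, against 65.2 and 70.6 CPM in CTL, a log2 fold change of 0.69 (SE 0.0388, adjusted p = 2.43e-06, edgeR) or 1.61-fold. SPBC947.06c had 60.2 and 60.9 CPM in Pac1-AA, against 53.5 and 49.9 CPM in CTL (log2 fold change 0.23, SE 0.0412, adjusted p = 0.00325, edgeR). Neither gene's groups overlapped, but the call of SPBC947.06c at an adjusted p of 0.01 was lost without Pac1-AA replicate 1 (0.24, adjusted p = 0.0240) and without replicate 2 (0.23, adjusted p = 0.0342).

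Other relatives fell. SPBC409.08, the spermine family gene, had 192.2 and 192.7 CPM in Pac1-AA, against 268.7 and 281.5 CPM in CTL (log2 fold change -0.52, SE 0.0306, adjusted p = 3.08e-06, edgeR). SPBC36.02c had 18.7 and 18.6 CPM in Pac1-AA, against 25.0 and 25.2 CPM in CTL (-0.43, SE 0.0540, adjusted p = 0.000375). Thus SPBC36.02c fell while its closest relative in sequence, SPCC569.05c, rose. Its neighbour SPBC36.01c had 25.5 and 27.0 CPM in Pac1-AA and 30.5 and 30.3 CPM in CTL (-0.21, adjusted p = 0.0199), which misses the threshold of 0.01.

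SPBC36.03c and SPBC530.15c had groups that overlapped. SPBC36.03c had 391.1 and 413.8 CPM in Pac1-AA and 411.0 and 454.3 CPM in CTL (-0.11, 95% interval -0.22 to 0.00, adjusted p = 0.157, edgeR). Without CTL replicate 1 it was at -0.18 with an adjusted p of 2.48e-05, and without CTL replicate 2 at -0.03 with an adjusted p of 0.647. SPBC530.15c had 199.8 and 202.8 CPM in Pac1-AA and 200.9 and 204.6 CPM in CTL, and its interval of -0.07 to 0.05 leaves room for only small changes.

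Calls needed more than a 2-fold change (log2 of 1) together with an adjusted p under 0.01, and 2 of the 9 genes were called, mfs2 and SPBC530.02, beside 0.838% of all genes. Of the 7 relatives 0 were called by edgeR or by DESeq2, and 5 had an unadjusted p below 0.05 in edgeR. At an adjusted p below 0.01 with any fold, 4 of the 9 were higher, beside 4.55% of all genes, and 2 were lower, beside 7.46%. The median log2 fold change was -0.01 over the 9 genes and -0.11 over the 7 relatives, beside 0.0046 over all genes. The upper end of the interval of SPCC569.05c (0.78) lay below the lower end of that of mfs2 (3.86), and the difference between genes was not tested.

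Several members overlap other genes. On the opposite strand of mfs2, SPAC11D3.04c shares 496 bases with it and had a log2 fold change of 0.06 in Pac1-AA (adjusted p = 0.316, edgeR). SPBC530.15c overlaps the antisense RNAs SPNCRNA.1387 (1.39, adjusted p = 0.0578) and SPNCRNA.329 (1.34, adjusted p = 0.0769), which were at 0.463 and 0.401 CPM in Pac1-AA against 0.182 and 0.177 CPM in CTL. The other overlaps by strand were prl34 (373 bases) for SPBC36.01c, SPNCRNA.1389 (295 bases) for SPBC36.02c, SPNCRNA.1391 (361 bases) for SPBC36.03c and SPCC569.04 (545 bases) for SPCC569.05c, all antisense, with log2 fold changes of 0.15, 0.02, -0.01 and -0.10 and adjusted p-values of 0.573 or more. On the same strand, SPBC36.01c and SPBC36.02c share 64 bases, SPBC36.03c and SPBC36.13 share 63 and SPCC569.05c and SPNCRNA.1297 share 67. The counter dropped fragments that fall on more than 1 gene.

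In the pac1-ts clones at 30°C, both targets were again high, and among the relatives SPCC569.05c passed the test. SPBC530.02 had 625.4 and 685.3 CPM in pac1-ts, against 22.3 CPM in WT (log2 fold change 4.88, SE 0.128, adjusted p = 1.75e-09, edgeR over 6728 genes). mfs2 had 234.4 and 200.9 CPM in pac1-ts, against 19.4 CPM in WT (3.49, SE 0.162, adjusted p = 2.07e-07). In fold these are 29.4 and 11.2. SPCC569.05c had 212.4 and 172.3 CPM in pac1-ts, against 97.8 CPM in WT (0.98, SE 0.146, adjusted p = 0.00103), or 1.97-fold. WT had 1 library at each temperature, so the spread came from the clones and the WT library is assumed to vary like them.

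The remaining relatives missed the threshold of 0.01 at 30°C. SPBC947.06c had 75.8 and 73.0 CPM in pac1-ts and 56.6 CPM in WT (0.40, adjusted p = 0.0195, edgeR). SPBC409.08 had 192.1 and 206.6 CPM in pac1-ts and 154.3 CPM in WT (0.37, adjusted p = 0.0342), the opposite side of its control from Pac1-AA. SPBC36.01c had 32.8 and 31.6 CPM in pac1-ts and 41.6 CPM in WT (-0.37, adjusted p = 0.0254). With the clones as a block all 3 passed, at adjusted p-values of 0.000914, 0.000902 and 0.00414 (edgeR). The block sets WT midway between the clones and leaves 1 residual degree of freedom. It also takes the difference between the clones out of the error. Its p-values for pac1-ts against WT therefore do not measure the spread between clones. SPBC36.02c (45.7 and 47.9 CPM in pac1-ts, 52.3 CPM in WT) and SPBC530.15c (141.9 and 140.3 CPM in pac1-ts, 161.6 CPM in WT) were lower in each clone, at -0.16 and -0.20 with adjusted p-values of 0.288 and 0.201. SPBC36.03c had 93.4 and 71.2 CPM in the clones, on either side of the 73.7 CPM in WT.

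By the rule with a fold, 2 of 9 genes were called at 30°C, again mfs2 and SPBC530.02, beside 2.41% of all genes. Of the 7 relatives 0 were called by edgeR or DESeq2, with 4 at an unadjusted p below 0.05. SPCC569.05c stood at the edge of that rule and became a further call without pac1-ts 30°C replicate 2 (1.12), without either 37°C clone library (1.00 each) and with scaling by library totals (1.03). At an adjusted p below 0.01, 3 were higher, beside 3.63% of all genes, and 0 were lower by edgeR or DESeq2, beside 6.30%, with 1 at an unadjusted p below 0.05. With the clone block 6 of the 9 passed that threshold. The share of all genes passing with the block was not counted, but calls with a fold over all genes were 186 higher and 60 lower, against 109 and 53 without it. The median log2 fold change was 0.37 over the 9 and 0.16 over the relatives, beside -0.0055 over all genes.

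After 2 h at 37°C the rise of SPBC530.02 was smaller than at 30°C, while for mfs2 the difference between temperatures did not pass the test. SPBC530.02 had 257.4 and 261.6 CPM in pac1-ts, against 22.1 CPM in WT (log2 fold change 3.55, SE 0.120, adjusted p = 1.29e-08, edgeR), or 11.7-fold. mfs2 had 283.2 and 243.6 CPM in pac1-ts, against 27.8 CPM in WT (3.24, SE 0.156, adjusted p = 1.75e-07), or 9.48-fold. The strain effect at 37°C minus that at 30°C was -1.33 for SPBC530.02 (SE 0.151, adjusted p = 0.00103) and -0.24 for mfs2 (adjusted p = 0.657). The fall was on the side of the clones, since SPBC530.02 in WT stood at 22.1 CPM at 37°C and 22.3 CPM at 30°C. Whether the 2 genes differ from each other in this was not tested.

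Of the relatives at 37°C, SPCC569.05c and SPBC947.06c were higher in pac1-ts. SPCC569.05c had 133.3 and 116.9 CPM in pac1-ts, against 74.6 CPM in WT (0.75, SE 0.145, adjusted p = 0.00413, edgeR). SPBC947.06c had 118.8 and 129.9 CPM in pac1-ts, against 91.3 CPM in WT (0.45, SE 0.0996, adjusted p = 0.00861), a call that DESeq2 did not make (adjusted p = 0.0344). These 2 genes, with mfs2 and SPBC530.02, were higher in every library of the Pac1 mutants than in every matched control in all 3 comparisons. In pac1-ts that control is 1 WT library at each temperature, and the share of all genes separated in this way was not counted.

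On the lower side at 37°C were SPBC36.03c (44.1 and 46.7 CPM in pac1-ts, 67.0 CPM in WT, -0.56, adjusted p = 0.0109, edgeR), SPBC36.02c (74.1 and 86.1 CPM, 102.4 CPM in WT, -0.35, adjusted p = 0.0226) and SPBC409.08 (120.9 and 111.8 CPM, 145.0 CPM in WT, -0.32, adjusted p = 0.0516). With the clone block these 3 passed, at adjusted p-values of 0.000177, 0.000609 and 0.00244 (edgeR), which again do not measure the spread between clones. SPBC36.01c had 42.7 and 45.7 CPM in pac1-ts and 50.8 CPM in WT, and SPBC530.15c had 152.1 and 139.8 CPM in pac1-ts and 158.8 CPM in WT, at -0.20 and -0.12 with adjusted p-values of 0.149 and 0.417. SPBC36.01c and SPBC36.02c were lower in every mutant library than in every matched control in all 3 Pac1 comparisons, with the same limits. By edgeR, SPBC36.01c passed an adjusted p of 0.01 in none of them and SPBC36.02c in Pac1-AA alone.

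At 37°C, 2 of 9 genes were called, the same pair, beside 2.85% of all genes, and 0 of the 7 relatives by edgeR or DESeq2, with 5 at an unadjusted p below 0.05. At an adjusted p below 0.01, 4 were higher, beside 5.80% of all genes, and 0 were lower by edgeR, beside 6.29%, with 3 at an unadjusted p below 0.05 and 1 passing in DESeq2 (SPBC36.03c). With the clone block 7 of the 9 passed. The share of all genes passing with the block was not counted, but calls with a fold over all genes were 203 higher and 43 lower, against 152 and 40 without it. For the difference between temperatures, 1 of 9 was called (SPBC530.02), beside 0.996% of all genes. At an adjusted p below 0.01 it was the single lower gene, beside 0.357%, and 0 were higher by edgeR, DESeq2 or at an unadjusted p below 0.05, beside 0.907%. The relatives with the largest differences were SPBC36.03c (-0.72, adjusted p = 0.0737, with the clone block 0.00192) and SPBC409.08 (-0.69, adjusted p = 0.0411, with the clone block 0.000217). The other 5 lay between -0.23 (SPCC569.05c) and 0.17 (SPBC36.01c), with SPBC36.02c at -0.19, SPBC947.06c at 0.050 and SPBC530.15c at 0.074 (adjusted p-values of 0.613 or more).

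**Figure D3:**
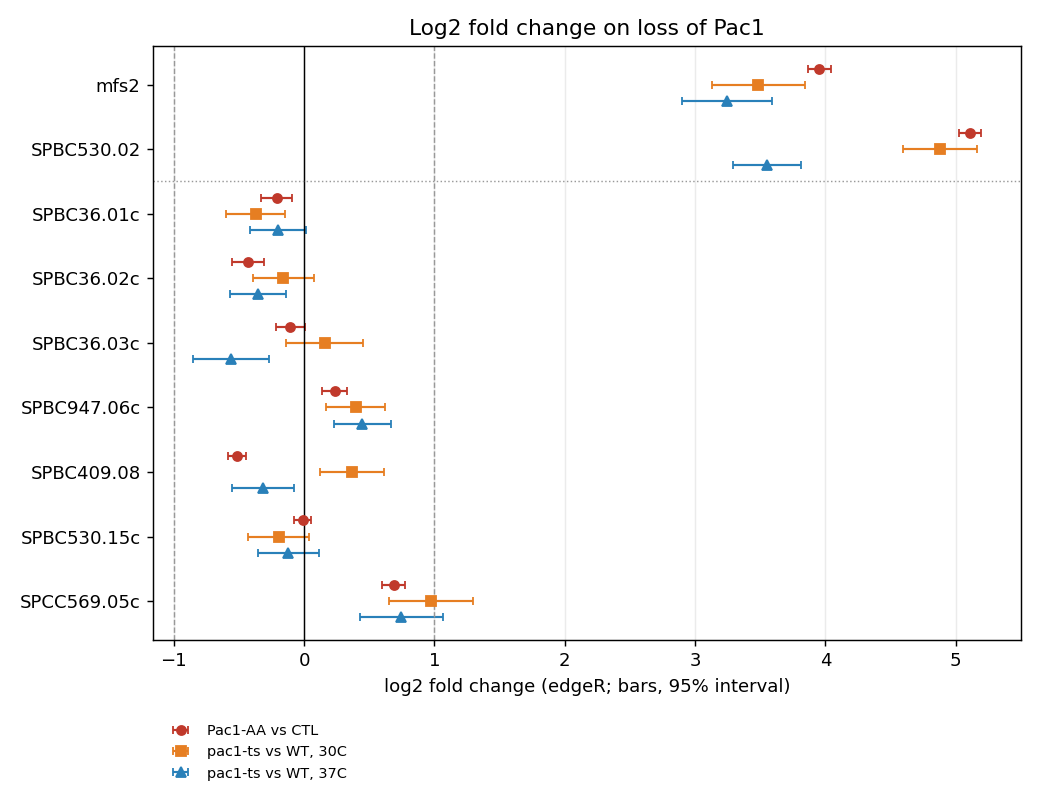
Log2 fold change of each gene in Pac1-AA against CTL and in pac1-ts against WT at 30°C and 37°C, with 95% intervals from edgeR, and dashed lines at 2-fold. mfs2 and SPBC530.02 lie between 3.24 and 5.11 in all 3, and the 7 relatives between -0.56 and 0.98.

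Heat raised SPBC36.02c and SPBC947.06c in both strains, and lowered SPBC530.02 in the clones but did not lower mfs2. SPBC36.02c had 102.4 CPM at 37°C and 52.3 CPM at 30°C in WT (log2 fold change 0.97, SE 0.118, adjusted p = 7.74e-05, edgeR), and 74.1 and 86.1 CPM at 37°C against 45.7 and 47.9 CPM at 30°C in pac1-ts (0.77, adjusted p = 1.34e-05). SPBC947.06c had 91.3 CPM at 37°C and 56.6 CPM at 30°C in WT (0.69, SE 0.116, adjusted p = 0.000652), and 118.8 and 129.9 CPM against 75.8 and 73.0 CPM in pac1-ts (0.74, adjusted p = 1.38e-05). SPBC36.01c also rose in the clones (0.46, adjusted p = 0.000632) and was at 0.29 in WT (adjusted p = 0.0610). These 3 rises include SPBC36.02c, which fell in Pac1-AA.

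With heat, 4 genes fell in the clones. SPBC530.02 had 257.4 and 261.6 CPM at 37°C, against 625.4 and 685.3 CPM at 30°C (-1.34, SE 0.0788, adjusted p = 1.24e-07, edgeR). SPBC36.03c (-0.86, adjusted p = 4.86e-05), SPBC409.08 (-0.78, adjusted p = 2.07e-05) and SPCC569.05c (-0.62, adjusted p = 0.00066) fell by less. In WT the same genes were at -0.01 (adjusted p = 0.957), -0.14 (0.509), -0.09 and -0.39 (0.0748), and the value of SPCC569.05c passed with the clone block (adjusted p = 0.000857). The fall of SPCC569.05c in the clones did not pass with scaling by library totals alone (-0.33, adjusted p = 0.0161), a scaling under which the median of all genes was 0.30, against 0.02 with TMM.

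mfs2 had 27.8 CPM at 37°C and 19.4 CPM at 30°C in WT (0.52, adjusted p = 0.0272, edgeR, with the clone block 0.000826), and 283.2 and 243.6 CPM against 234.4 and 200.9 CPM in pac1-ts (0.28, adjusted p = 0.0421, with the block 0.000242). SPBC530.15c was at -0.03 in WT and 0.05 in pac1-ts (adjusted p = 0.668). In WT 0 of 9 genes were called by edgeR or DESeq2, beside 10.4% of all genes, although 5 had an unadjusted p below 0.05. At an adjusted p below 0.01, 2 were higher, beside 12.8%, and 0 were lower by either tool, beside 18.1%, with 1 at an unadjusted p below 0.05. In pac1-ts 1 was called (SPBC530.02), beside 11.1%, and at an adjusted p below 0.01 3 were higher, beside 21.4%, and 4 lower, beside 25.4%. Library totals in place of TMM raised the count called in WT to 2 and in pac1-ts to 3. SPBC36.02c became a call in WT without pac1-ts 37°C replicate 1 or 2 (1.01 each), and SPBC36.03c one in pac1-ts without 30°C replicate 2 (-1.04).

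**Figure D4:**
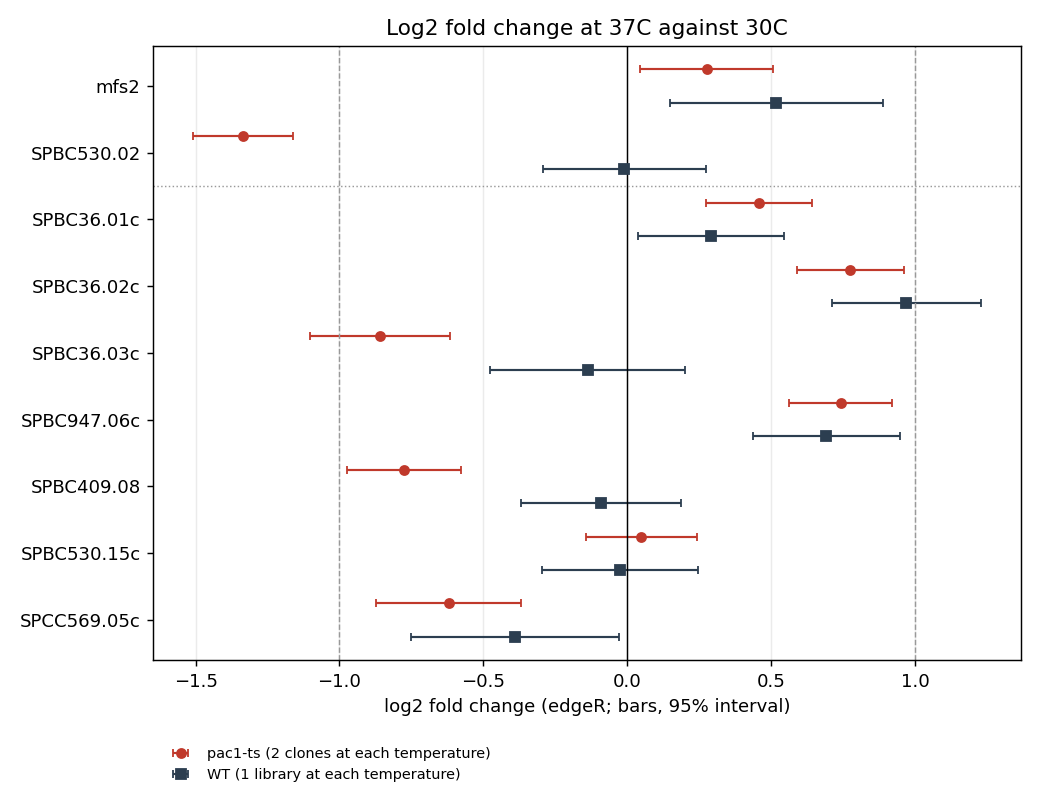
Log2 fold change at 37°C against 30°C in pac1-ts (2 clones at each temperature) and in WT (1 library at each), with 95% intervals from edgeR and dashed lines at 2-fold. SPBC36.02c and SPBC947.06c lie to the right in both strains (0.69 to 0.97), and SPBC530.02 lies at -1.34 in pac1-ts and -0.01 in WT.

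The thiamine libraries had no replicates, so values are log2 ratios to the 1 WT library with 95% exact (Clopper-Pearson) intervals that cover counting error only, and the 3 ratios of a gene share that WT library. SPBC530.02 was higher in every one of them. It had 150.5 CPM (1325 counts) in the library labelled Pnmt81-dis3, 44.5 CPM (406 counts) in that labelled Pnmt81-dhp1 and 109.8 CPM (829 counts) in that labelled with both, against 9.41 CPM (62 counts) in WT. The log2 ratios were 3.99 (3.63 to 4.39), 2.23 (1.85 to 2.65) and 3.54 (3.17 to 3.94). Counted over the whole gene, mfs2 went past 2-fold in the double library alone. It had 46.2, 35.2 and 95.5 CPM in the same order, against 39.3 CPM in WT, ratios of 0.23 (0.01 to 0.46), -0.16 (-0.40 to 0.08) and 1.28 (1.08 to 1.49). The study looked at coverage along both genes instead. It reports that the part upstream of the stem-loop was stabilised on loss of Dis3 or Mtr4, and the part downstream on loss of Dhp1. Counts per gene cannot show such regional changes, for the targets or the relatives.

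No relative was past 2-fold higher in more than 1 of these libraries. SPBC36.01c was past it in the library labelled Pnmt81-dhp1, with 56.7 CPM against 25.2 CPM in WT (1.17, 0.91 to 1.43), while its ratios in the others were -0.05 and 0.36. SPCC569.05c had 945.2 CPM in the library labelled Pnmt81-dis3, 193.1 CPM in that labelled Pnmt81-dhp1 and 708.4 CPM in that labelled with both, against 500.1 CPM in WT. Its ratios of 0.92 (0.86 to 0.98), -1.37 (-1.46 to -1.29) and 0.50 thus pointed both ways. Its close relative SPBC36.02c was at 97.2, 102.6 and 57.1 CPM in that order, against 61.3 CPM in WT (0.66, 0.74 and -0.10).

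SPBC36.03c showed the largest falls. It had 165.0 CPM in the library labelled Pnmt81-dis3 and 197.7 CPM in the double one, against 585.4 CPM in WT (-1.83, -1.91 to -1.74, and -1.57, -1.65 to -1.48), but 667.1 CPM in that labelled Pnmt81-dhp1 (0.19). SPBC947.06c was lower in all 3, with 11.7, 13.9 and 7.29 CPM against 19.7 CPM in WT, and past 2-fold in the double library (-1.43, -1.92 to -0.97). SPBC530.15c had 81.2, 106.5 and 54.7 CPM, against 112.6 CPM in WT, and -1.04 (-1.22 to -0.86) in the double library. SPBC409.08 stayed within 0.30 of WT on the log2 scale, at 904.1, 637.0 and 911.4 CPM against 782.4 CPM.

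Ratios past 2-fold were common among all genes in this experiment. In the library labelled Pnmt81-dis3, 1 of 9 was past 2-fold higher, beside 24.8% of all genes, and 1 lower, beside 19.9%. In that labelled Pnmt81-dhp1, 2 were higher, beside 16.9%, and 1 lower, beside 11%. In that labelled with both, 2 were higher, beside 25.8%, and 3 lower, beside 19.2%. Over the 7 relatives the median log2 ratios were -0.05, -0.08 and -0.10 in that order, beside -0.01, 0.03 and -0.02 over all genes.

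**Figure D5:**
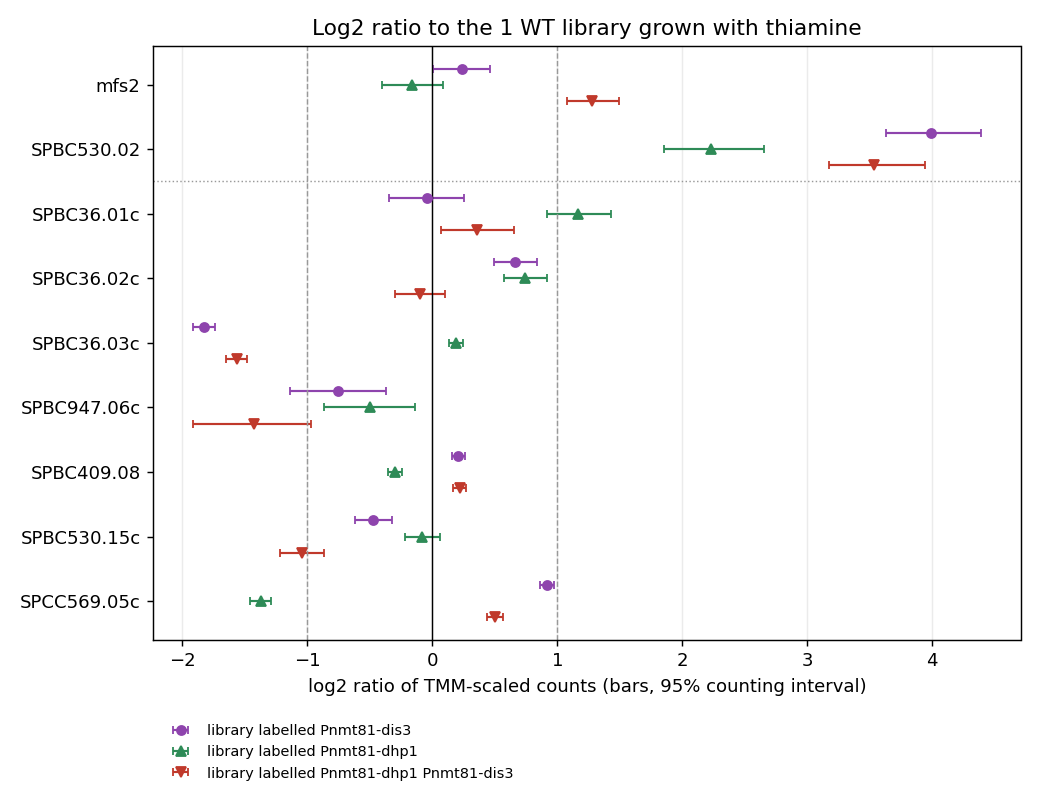
Log2 ratio of TMM-scaled counts of each gene in the 3 depletion libraries, named by their labels, to the 1 WT library grown with thiamine, with 95% counting intervals and dashed lines at 2-fold. SPBC530.02 lies between 2.23 and 3.99, mfs2 is past 2-fold in the double library (1.28), and SPBC36.03c lies at -1.83 and -1.57 in the 2 libraries labelled with Pnmt81-dis3.

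Genes that make, control or move polyamines were described as a list of 8, taken by their RefSeq product names. In Pac1-AA 2 of the 8 passed an adjusted p of 0.01 in edgeR, both lower (7.46% of all genes were), srm1 (spermidine synthase, -0.47, adjusted p = 3.78e-06) and spe2 (S-adenosylmethionine decarboxylase, -0.21, adjusted p = 0.00351). The median of the list was -0.13, beside 0.0046 over all genes. In pac1-ts at 30°C, caf5, a spermine family transporter, rose (1.10, adjusted p = 0.000233) and srm1 fell (-0.78, adjusted p = 0.00044), 2 of 8 beside 3.63% of all genes higher and 6.30% lower. At 37°C srm1 fell by more than 2-fold (-1.06, adjusted p = 4.97e-05) and caf5 was at -0.02. The strain effect of caf5 was smaller at 37°C than at 30°C (difference -1.12, adjusted p = 0.0063, edgeR). With heat caf5 was at 0.75 in WT (adjusted p = 0.00163) and -0.36 in pac1-ts (adjusted p = 0.00727), whereas SPBC530.02 was at -0.01 and -1.34. In Pac1-AA caf5 was at 0.08 (adjusted p = 0.258). Heat lowered srm1 in WT (-1.45, adjusted p = 6.78e-06) and in pac1-ts (-1.73, adjusted p = 4.3e-08). In the 3 thiamine libraries, in the order of labels used above, 1, 1 and 1 of the 8 genes were past 2-fold higher and 1, 2 and 3 lower, beside the shares of all genes given above, with list medians of -0.58, -0.32 and -0.63. caf5 was at 3.14, 0.99 and 2.21 and srm1 at -2.11, -0.91 and -2.44. Also past 2-fold were SPCC74.04 (1.01), SPAC9.02c (-1.02) and spa1 (-1.12) in the library labelled Pnmt81-dhp1, and SPCC584.13 (-1.65) and spa1 (-1.05) in the double one. The MFS list took other genes whose RefSeq product names contain MFS or major facilitator, and it held 2. It is not the whole family, since SPBC530.02 itself is named only as a transporter. mfs1, the 1 gene of it with enough counts to test, was at 0.59 in Pac1-AA (adjusted p = 6.83e-06, edgeR) and -0.67 in pac1-ts at 30°C (adjusted p = 0.0014).

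The genes whose levels ran most alike to each member were found by Pearson r of log2(CPM + 1) over the 14 libraries, with the mean of each experiment taken off, among 6283 genes. These libraries share batches and strains, so r is a description. mfs2 ran closest to the noncoding RNA SPNCRNA.1557 (r = 0.966), SPCC330.03c (0.942), a cytochrome b5 reductase, and dak2 (0.932). SPBC530.02 ran closest to the small nucleolar RNA snr79 (0.943), SPNCRNA.612 (0.915) and mfs2 (0.914). No relative was among the 3 nearest genes of either.

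The relatives had neighbours of other kinds. SPBC36.01c was nearest to pas4 (0.952), cog3 (0.948) and SPCC338.03c (0.942), and SPBC36.02c to SPBC1773.03c (0.925), SPBC1347.09 (0.909) and SPAC6F6.04c (0.908). SPBC36.03c was nearest to psd2 (0.986), end3 (0.980) and pgk1 (0.979), SPBC947.06c to sib1 (0.972), msp1 (0.949) and tac1 (0.949), and SPBC530.15c to sts5 (0.980), dld1 (0.972) and ure2 (0.971). SPBC409.08 had the least close neighbours, guf1 (0.872), ipp1 (0.802) and tif5 (0.797). SPCC569.05c was nearest to SPNCRNA.944 (0.919), SPNCRNA.1639 (0.914) and SPACUNK4.09 (0.904). Among the members themselves, r was 0.58 and 0.66 between SPCC569.05c and the 2 targets, 0.70 between SPBC36.03c and SPBC530.15c, and -0.88 between SPBC36.01c and SPCC569.05c.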

How the data were processed

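RNA-seq of S. pombe was analysed in 14 libraries (groups as above). According to the study's methods, the authors trimmed paired reads with trimmomatic (minimum length 36), aligned them with HISAT2 to ASM294v2.26 and deposited raw read counts per gene, made by featureCounts with strand; fragments on several genes were not counted. The labels name DESeq2 and deepTools too, and versions are not given in the sources used here. The libraries of the pac1-ts experiment came from the Zymo-Seq RiboFree kit and the others from TruSeq with RiboZero.

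The 9 members and all lists were chosen with earlier results of these data known. Counts were tested with edgeR 4.0.16 (R 4.3.3, quasi-likelihood, TMM, filterByExpr with a minimum of 10 counts), by strain for the anchor-away libraries (6328 genes) and by strain, temperature and their interaction for the 6 pac1-ts libraries (6728 genes), with Benjamini-Hochberg adjustment over all genes; all 9 members passed the filter in each. A call was an absolute log2 fold change above 1 with an adjusted p below 0.01. Thiamine libraries, 1 per strain, got log2 ratios of TMM-scaled counts + 0.5 without a test. All members are named in every comparison, with overlapping genes, the 3 nearest by r, and called genes of the lists, the stress lists in the closing section. Intervals and the floor of 3 counts cover counting error only, since reads carried no molecular identifiers. Replicates differed beyond sampling noise (chi-square per degree of freedom 6.53 to 19.4). The tests were first tried on simulated counts with known changes.

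The clone numbers pair the pac1-ts libraries, since the same clone was sampled at both temperatures (correlation of deviations 0.58), and the clone was an alternative block (clone 2 against clone 1, with WT in neither). Other alternatives were DESeq2 1.42.0, RLE factors, library totals, other filters and thresholds, no interaction, and each replicate left out. RefSeq (ASM294v3) annotation matched 6844 of 7049 genes. Sequences were aligned with Biopython 1.88 and folded with RNAfold 2.7.2, and the 60-base windows were added after the 200-base windows had been seen.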

Additional observations from a re-analysis of the deposited data

Results flagged for a closer look

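The rise of SPBC530.02 in pac1-ts differed between temperatures by the test of the difference itself. Its log2 fold change at 37°C minus that at 30°C was -1.33 (SE 0.151, adjusted p = 0.00103, edgeR), with pac1-ts at 257.4 and 261.6 CPM and WT at 22.1 CPM at 37°C, and pac1-ts at 625.4 and 685.3 CPM and WT at 22.3 CPM at 30°C.

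SPBC409.08 lay on different sides of its control in the Pac1 comparisons. Every Pac1-AA library was lower than every CTL library (log2 fold change -0.52), both clones were higher than WT at 30°C (0.37) and both were lower at 37°C (-0.32). The difference between temperatures was tested (-0.69, adjusted p = 0.0411, edgeR), and that between Pac1-AA and pac1-ts, which differ in kit, strain and rapamycin, was not tested.

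Outside the members, the strain effect of pac1-ts also differed between temperatures for pac1 and for genes of the lists by the same test. At 37°C minus at 30°C it was 1.26 for pac1 itself (adjusted p = 0.00249, edgeR), -1.12 for caf5 (adjusted p = 0.0063), -1.28 for obr1 (adjusted p = 0.00121) and -1.18 for tpx1 (adjusted p = 0.0063). It was 0.95 for gpx1 (adjusted p = 0.00441, edgeR), which is short of the log2 threshold of 1.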

How the results depend on the processing

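The calls of mfs2 and SPBC530.02 in the 3 Pac1 comparisons held under every alternative run, with log2 fold changes of 3.09 to 4.06 and 3.48 to 5.22. Over all log2 values and alternatives, 563 stayed the same. For tested values this means the same side of the adjusted p threshold, and for thiamine ratios, which have no test, a value within the counting interval. Of the others, 51 moved past the threshold, 7 fell short of it, 11 thiamine ratios moved out of their interval and 25 values changed sign. Where no cause is given it was not tested. With no log2 threshold the members called numbered 6 in Pac1-AA, 4 at 37°C for pac1-ts, 2 for heat in WT and 7 for heat in pac1-ts. With a threshold of 0.5 they numbered 4 in Pac1-AA, 2 for heat in WT and 6 for heat in pac1-ts. At an adjusted p below 0.05, 6 passed at 30°C and 2 in the interaction, and 5 members were past 1.5-fold in the library labelled Pnmt81-dis3. The shares of all genes with no log2 threshold are given by direction in the Results. Those at a threshold of 0.5, at an adjusted p below 0.05 and past 1.5-fold were not counted. With the clone as a replicate block, 6 passed at 30°C, 7 at 37°C, 3 in the interaction and 4 for heat in WT, and calls over all genes at 30°C were 186 higher and 60 lower (109 and 53 without it) and 79 and 41 in the interaction (48 and 19). The block changed no other count by over 1.5 times. For pac1-ts against WT it takes the difference between the clones out of the error, so more passes are not firmer support. The replicate numbers of the anchor-away libraries share only a number (2 pairs, correlation 0.105). With them as a block 7 members passed in place of 6 (SPBC36.01c at -0.21, adjusted p = 0.00244), and 61 genes were called higher and 16 lower, against 39 and 14.

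Leaving out 1 library left 5 to 7 members passing in Pac1-AA, 3 to 6 at 30°C, 5 to 6 at 37°C, 2 to 3 in the interaction, 3 to 4 for heat in WT and 7 to 8 for heat in pac1-ts, while those called with a fold were 2 in Pac1-AA, 2 to 3 at 30°C, 2 at 37°C, 1 in the interaction, 0 to 1 for heat in WT and 1 to 2 for heat in pac1-ts. Without pac1-ts 30°C replicate 1, calls over all genes at 30°C were 187 higher and 75 lower, with 79 and 34 in the interaction, and without the 37°C replicates the interaction gave 61 and 43 (replicate 1) or 60 and 39 (replicate 2). Without pac1-ts 30°C replicate 2 it gave 65 and 32, and without 37°C replicate 2 the calls higher at 30°C were 166.

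With library totals the median of all genes, which was -0.02 to 0.03 with TMM, stood at 0.40 (heat in WT), 0.30 (heat in pac1-ts), -0.12 (interaction), 0.11 (Pac1-AA), 0.40 (library labelled Pnmt81-dhp1) and -0.12 (double). They gave 2 members called and 4 passing for heat in WT and 3 called for heat in pac1-ts. Calls of all genes were then 69 higher and 9 lower in Pac1-AA (39 and 14 with TMM), 27 and 20 in the interaction, 863 and 91 for heat in WT (395 and 302) and 748 and 147 for heat in pac1-ts (423 and 323). With library totals the values that changed sign were SPBC530.15c in Pac1-AA (0.094), SPBC947.06c (-0.083) and SPBC530.15c (-0.059) in the interaction, and for heat in WT SPBC530.02 (0.41), SPBC36.03c (0.28), SPBC409.08 (0.33), SPBC530.15c (0.39) and SPCC569.05c (0.027). For heat in WT, SPBC530.02 was at 0.00997 with DESeq2 and 0.00996 with RLE factors. A mean count of at least 50 gave 1 member called for heat in WT, SPBC530.02 at 0.047, SPBC530.15c at 0.033 and 21 and 13 calls of all genes in the interaction. Without the interaction term, 7 members passed for heat in WT and 0 were called for heat in pac1-ts, SPBC36.03c was at -0.21 at 30°C, SPBC409.08 at 0.014 at 37°C and SPBC530.15c at 0.024 for heat, and at 30°C 119 genes were called higher and 31 lower. This model gives both strains 1 heat effect by construction. Leaving out 1 library turned SPBC530.15c in Pac1-AA (-0.024 to 0.0027), SPBC36.03c at 30°C (-0.050 to 0.34), SPBC947.06c (-0.072 to 0.078) and SPBC530.15c (-0.055 to 0.082) in the interaction, SPBC530.02 (-0.010 to 0.030) and SPBC530.15c (-0.025 to 0.015) for heat in WT and SPBC530.15c for heat in pac1-ts (-0.040 to 0.092).

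Limits are the 2 libraries per group of the anchor-away experiment, the 1 WT library at each temperature and the 1 library per strain with thiamine. Depth limits SPBC530.02 in WT with thiamine (62 counts) and SPBC947.06c in the double library (55 counts).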

Other observations

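Outside the transporters, 2 lists of stress genes, chosen along with the members, were described. Of 6 heat chaperones, hsp16 and ssa1 were called at 37°C against 30°C in pac1-ts (log2 fold changes 4.53 and 1.74, beside 11.1% of all genes called) and in WT (5.28 and 1.36, beside 10.4%) by edgeR. The list did not rise as a whole. mas5 was at -0.77 in pac1-ts (adjusted p = 1.73e-05, edgeR) and -0.38 in WT, ssa2 at -0.49 and -0.63, hsp90 at -0.30 and -0.28, and hsp104 at 0.11 and 0.67. The list median was -0.09 in pac1-ts and 0.20 in WT. hsp16 was also higher in pac1-ts than in WT at 30°C (2.41, adjusted p = 1.99e-06) and at 37°C (1.66, adjusted p = 9.24e-06), and in Pac1-AA it was at 0.10 (adjusted p = 0.163).

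The oxidative stress list of 14 genes had 5 members passing an adjusted p of 0.01 upward in Pac1-AA (4.55% of all genes), 5 in the clones kept at 30°C (3.63%) and 8 after heating to 37°C (5.80%), and 1 downward in Pac1-AA (7.46%) and 1 at 37°C (6.29%). The median log2 fold change of the list was 0.08, 0.31 and 0.56 in that order, beside 0.0046, -0.0055 and 0.0043 over all genes. The transcription factor gene prr1 (0.66, 1.14 and 0.73), the catalase gene ctt1 (0.46, 0.74 and 1.41), srx1 (0.72, 0.81 and 1.11) and gst2 (0.51, 2.35 and 1.02) were higher in all 3 Pac1 comparisons, with adjusted p-values of 0.00738 or less. Other genes of the list were not. trr1 was at 0.10, -0.21 and -0.26 and atf1 at -0.01, -0.24 and -0.04. The gene that passed downward at 37°C was tpx1 (-0.95, adjusted p = 0.000434, edgeR). obr1 was lower in Pac1-AA (-0.36, adjusted p = 8.2e-05) and higher in pac1-ts at 30°C (1.76, adjusted p = 2.71e-06), and gpx1 was called at 37°C (1.02). The strain effects of obr1 and tpx1 were lower at 37°C than at 30°C (differences of -1.28 and -1.18). That of gpx1 was higher (0.95, adjusted p = 0.00441, edgeR). With heat, gst1, gpx1, gst3 and ctt1 were called higher in pac1-ts (2.06, 3.18, 1.72 and 2.05) and in WT (2.97, 2.22, 1.12 and 1.38), and obr1 lower (-2.29 and -1.01). At an adjusted p below 0.01, 6 were higher and 5 lower in pac1-ts (21.4% and 25.4% of all genes), and 5 and 3 in WT (12.8% and 18.1%). Among the lower genes was trr1 (-0.76 in pac1-ts and -0.71 in WT). The list median was 0.01 in pac1-ts and 0.27 in WT.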
